A study of Mus musculus with 6 samples.

Results

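Acyl-CoA thioesterases cut the bond between a fatty acid and coenzyme A. The 9 genes described here were chosen by symbol from the count table: Acot1, Acot2, Acot4, Acot7, Acot8, Acot9, Acot11, Acot13 and Them4. All 9 were among the 16627 genes of the table, and all 9 passed the filter on low counts. The RNA came from inguinal white fat of mice held at 4 °C for 6 hours. The 3 Celf1 AKO libraries are from mice with the floxed gene (Celf1fl/fl) labelled as lacking Celf1 specifically in adipocytes, and the 3 Flox control libraries from floxed littermates labelled as controls. The Cre driver, age and sex of the mice are not given in the labels, nor is a group kept warm, and the labels do not say that each library is a separate mouse.

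Activated fatty acids enter oxidation or lipid synthesis as acyl-CoA, and thioesterases run that activation backwards, giving free fatty acid and free coenzyme A. Each compartment has its own enzymes. Acot1, Acot2 and Acot4 share the alpha/beta hydrolase fold and lie side by side in the mouse genome, whereas the other members have the hotdog fold. In mouse, Acot1 and Acot2 are known targets of the fatty acid sensor PPAR alpha, and Acot11 was first described as a thioesterase induced by cold in brown fat.

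Library totals ran from 54835348 to 64676854 counts in Celf1 AKO and from 62382822 to 64979443 in Flox control. Celf1 itself had 52.5, 49.8 and 63.0 CPM (counts scaled to library size with TMM factors) in replicates 1 to 3 of Celf1 AKO, against 126, 114 and 144 CPM in Flox control replicates 1 to 3. Celf1 AKO thus held 43.1% of the control level, with no overlap between the groups (edgeR adjusted p = 0.122, and 0.0174 without Celf1 AKO replicate 3, DESeq2 adjusted p = 1.21e-09). In whole tissue, fewer cells of a type and less RNA per cell cannot be told apart. Celf1 AKO replicate 3 stood apart from its group: the correlation of its log2 CPM was 0.983 to 0.986 with each control, above the 0.976 to 0.978 with each knockout. Where leaving it out moves a result, that value is given too. The 7 adipocyte markers, Adipoq and Plin1 among them, were all present and summed to 26539 to 33228 CPM in Celf1 AKO against 30965 to 34753 CPM in Flox control. Fabp4 gave the largest part of the sum (means 14658 and 16172 CPM). Of the 7, 5 had negative log2 fold changes and 2 positive. The most negative was Lep, at 102 ± 62.2 CPM in Celf1 AKO against 336 ± 216 CPM in Flox control, with overlap. Of 4 genes listed as classical brown fat markers, Zic1 was not analysed here. Ucp1, Lhx8 and Eva1b summed to 16.3 to 87.3 CPM in Celf1 AKO against 470 to 580 CPM in Flox control. Ucp1, which is also a gene of beige fat, gave nearly all of the sum in Flox control (mean 508 CPM). Apart from Ucp1, Lhx8 was at 6.24 ± 1.97 against 4.39 ± 0.276 CPM and Eva1b at 4.37 ± 0.697 against 6.08 ± 2.01 CPM, both with overlap (SD, n = 3 each).

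Acot2, Acot1, Acot4, Acot3, Acot5 and Acot6 follow each other on the plus strand of chromosome 12 within 123.5 kb (GRCm38, 83987861 to 84111349). Acot3, Acot5 and Acot6, which are not among the 9, code for peroxisomal enzymes in mouse. The 60 aligned coding bases nearest the middle of the coding alignment show how alike the copies are. Capitals mark bases that differ from Acot4 at the same aligned place.

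Acot4 coding, chr12:84041921-84041980, plus strand: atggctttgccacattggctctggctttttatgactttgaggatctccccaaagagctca

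Acot1 coding, chr12:84014463-84014522, plus strand: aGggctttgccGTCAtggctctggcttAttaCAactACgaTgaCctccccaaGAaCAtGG

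Acot2 coding, chr12:83990578-83990637, plus strand: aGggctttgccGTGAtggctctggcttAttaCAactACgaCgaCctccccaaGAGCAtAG

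Acot5 coding, chr12:84073414-84073473, plus strand: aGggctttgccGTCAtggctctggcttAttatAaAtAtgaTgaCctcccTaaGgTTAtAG

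In these 60 bases Acot1 and Acot2 differed at 4 places, Acot1 and Acot5 at 8, and Acot1 and Acot4 at 18. Over the whole coding alignment, Acot1 and Acot2 were 95.3% identical (1178 of 1236 bases), with a longest identical run of 256 bases. Acot1 was 83.2% identical to Acot5 and 72.8% to Acot4. Of all 100-base words in the Acot1 transcript, 21.9% also occurred in a transcript of another gene, and in the Acot2 transcript 17.1%. The sources used here give no read length, so the share of reads that could be split between Acot1 and Acot2 is unknown, and both are uncertain one by one. Acot4 shared 8.85% of its 100-base words, nearly all of them with 4732463B04Rik, an antisense gene that overlaps it.

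The promoters of 8 of the 9 members (all but Acot13) were matched in RefSeq's GRCm38.p6 table, each spanning 250 bases before to 50 after the gene start. Those of Acot4, Acot5 and Acot1 are shown because their transcripts had the same pattern across libraries, and that of Acot2 because the Acot2 transcript did not. Capitals mark the nuclear receptor half-site AGGTCA on either strand.

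Acot4 promoter, chr12:84038129-84038428, plus strand: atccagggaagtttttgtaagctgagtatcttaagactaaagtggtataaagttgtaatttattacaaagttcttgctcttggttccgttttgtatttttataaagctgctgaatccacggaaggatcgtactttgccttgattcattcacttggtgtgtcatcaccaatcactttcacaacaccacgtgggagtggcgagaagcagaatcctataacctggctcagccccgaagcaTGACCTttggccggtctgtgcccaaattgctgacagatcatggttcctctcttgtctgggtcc

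Acot5 promoter, chr12:84069074-84069373, plus strand: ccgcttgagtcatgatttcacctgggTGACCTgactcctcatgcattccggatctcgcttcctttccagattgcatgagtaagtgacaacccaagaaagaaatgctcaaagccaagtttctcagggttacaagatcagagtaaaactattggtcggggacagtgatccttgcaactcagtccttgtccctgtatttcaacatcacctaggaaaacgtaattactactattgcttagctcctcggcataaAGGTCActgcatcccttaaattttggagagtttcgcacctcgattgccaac

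Acot1 promoter, chr12:84009252-84009551, plus strand: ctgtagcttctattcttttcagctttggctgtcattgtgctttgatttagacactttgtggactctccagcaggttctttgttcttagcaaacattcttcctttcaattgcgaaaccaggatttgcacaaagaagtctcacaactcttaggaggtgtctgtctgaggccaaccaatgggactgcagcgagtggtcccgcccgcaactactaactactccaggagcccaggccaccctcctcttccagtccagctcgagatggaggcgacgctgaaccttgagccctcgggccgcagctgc

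Acot2 promoter, chr12:83987611-83987910, plus strand: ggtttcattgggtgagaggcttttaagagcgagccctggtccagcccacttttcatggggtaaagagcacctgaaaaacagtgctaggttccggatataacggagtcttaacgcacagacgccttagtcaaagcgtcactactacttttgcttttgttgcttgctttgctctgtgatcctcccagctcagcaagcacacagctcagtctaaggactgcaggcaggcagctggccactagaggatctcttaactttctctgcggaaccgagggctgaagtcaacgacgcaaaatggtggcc

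AGGTCA lay 13 bases before the start of Acot4 and at 224 and 1 bases before that of Acot5, and also in the promoter of Acot3. No promoter of Acot1, Acot2 or any other matched member held it, so of the cluster genes with the common pattern Acot3, Acot4 and Acot5 had the site and Acot1 did not. Acot6 was not matched in the table. The half-site occurred in 16.3% of all 32851 promoters in the table. The full PPAR direct repeat, a pair of AGGTCA with 1 base between them (0.0396% of promoters), the ERR element TCAAGGTCA, which contains the half-site (0.423%), and the cAMP response element TGACGTCA (1.79%) occurred in none of the members' windows. Celf1 binds GU-rich stretches of mRNA. A GU-rich element of 3 copies of TGT with 1 T between neighbours was searched in 1 transcript per gene, on the sense strand. It was in none of the members' 3' untranslated regions, and in 3.18% of those of 20619 protein-coding genes. The shorter TGTTTG occurred 3 times in that of Acot4 (4805 bases) and in no other member. Its share over all genes was not counted.

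Levels per length were compared in FPKM, deposited by the authors. The order was nearly the same in both groups. Acot9, a mitochondrial thioesterase, was highest, at 46.0 ± 3.18 FPKM in Celf1 AKO and 44.3 ± 4.44 FPKM in Flox control (SD, n = 3 each). It gave 36.8% to 44.2% of the summed FPKM of the 9 genes in Celf1 AKO and 33.9% to 38.7% in Flox control. Acot13, also called Them2, was next at 23.0 ± 3.66 against 24.8 ± 1.61 FPKM. Acot7, a cytosolic enzyme best known from brain, followed at 15.3 ± 2.62 against 13.3 ± 1.01 FPKM, and then Acot2 at 11.7 ± 2.48 against 11.2 ± 0.658 FPKM. Acot7 and Acot2 overlapped in Celf1 AKO but not in Flox control.

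Acot4, Acot8 and Them4 came next, at means of 4.59 to 5.93 FPKM in Celf1 AKO and 7.24 to 8.72 FPKM in Flox control, with neighbours that overlapped in both groups, and Acot4 also overlapped Acot2 in both groups. Acot1 and Acot11 were the lowest, with overlapping ranges in both groups. Acot11 averaged 0.949 ± 0.132 FPKM in Celf1 AKO and 2.12 ± 0.0665 FPKM in Flox control. Acot5, outside the 9, was at 18.5 ± 24.2 FPKM in Celf1 AKO and at 38.9 ± 17.2 FPKM in Flox control, where its mean was above that of every member but Acot9.

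**Figure D1:**
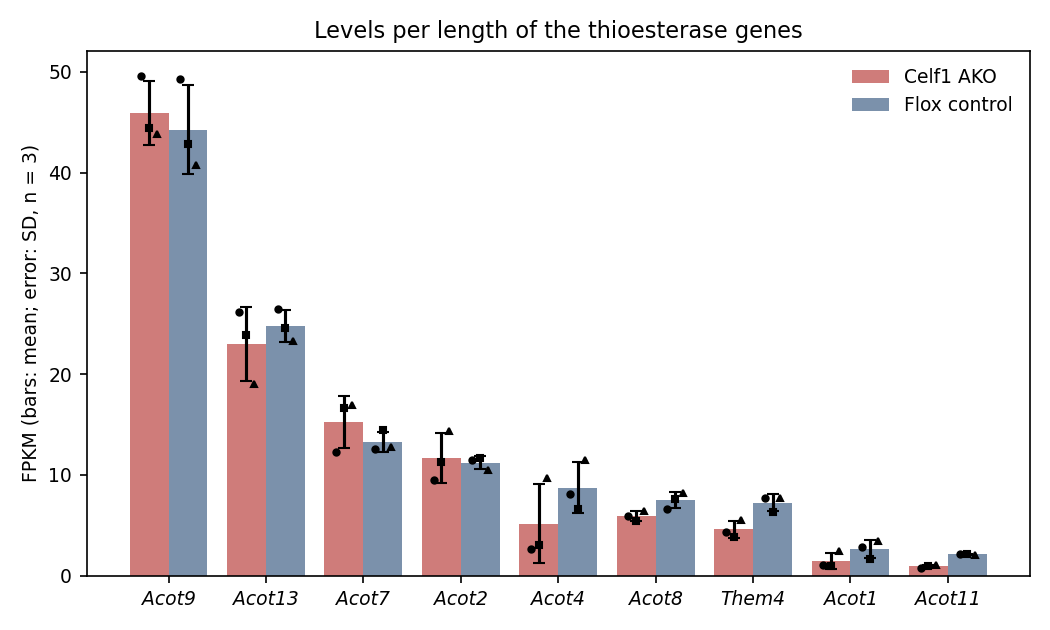
FPKM of the 9 thioesterase genes, ordered by their mean in Flox control. Bars are means with SD (n = 3 libraries), Celf1 AKO in red on the left and Flox control in blue on the right, and points are single libraries. Acot9 is the highest in both groups (46.0 and 44.3 FPKM) and Acot11 the lowest (0.949 and 2.12 FPKM).

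The series asks what loss of Celf1 from adipocytes does to cold-exposed inguinal fat. Among the thioesterases the largest difference with groups apart was in Acot11, which was at 45.1% of the control mean in Celf1 AKO. Them4 and Acot8 were also lower in every Celf1 AKO library. Acot1 and Acot4 were low in Celf1 AKO replicates 1 and 2 but not in replicate 3, and Acot2, Acot7, Acot9 and Acot13 overlapped between the groups. None of the 9 passed at an adjusted p under 0.05 by edgeR's quasi-likelihood test over 16366 genes. Only 0.0122% of all genes did. At an unadjusted p under 0.05 there were 2 of the 9, Acot11 and Them4, against 12.9% of all genes (6.17% lower), and DESeq2 called 1, Acot11, lower, against 3.04% of all genes in either direction and 0.926% lower. The 2 groups did not overlap in CPM for 3 of the 9, all 3 lower in Celf1 AKO, where 17.3% of all genes did not overlap and 9.51% were lower without overlap. Of the 9 log2 fold changes, 6 were negative, with a median of -0.32. The median over all genes tested was -0.02 and 52.5% were negative.

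Acot11 (ENSMUSG00000034853, GRCm38 chromosome 4, 106744555 to 106804998, minus strand) codes for the cold-inducible enzyme of brown fat, also called Them1, which carries a lipid-binding START domain. It had 4.60, 5.81 and 5.87 CPM in replicates 1 to 3 of Celf1 AKO, against 13.2, 11.7 and 11.2 CPM in Flox control replicates 1 to 3. The 3 knockout values lay close together and well below the controls. Its log2 fold change of -1.15 (SE 0.18) had an edgeR adjusted p = 0.215. DESeq2 gave an adjusted p = 1.12e-06, and edgeR gave 0.0300 without Celf1 AKO replicate 3. With another single library left out it missed the threshold, up to 0.697 without Flox control replicate 3. Of its annotated exon bases, 20.9% also belong to Fam151a on the other strand, which was not analysed here. Ucp1, the uncoupling protein of brown and beige fat, was at 79.6, 4.86 and 34.0 CPM in Celf1 AKO against 461, 567 and 495 CPM in Flox control. Ucp1 varied widely among the knockout libraries, and Acot11 did not.

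Across the 6 libraries the gene with the pattern nearest to Acot11 among 13081 others was Ppcs, an enzyme of coenzyme A synthesis. Its centred log2(CPM + 0.5) differed from that of Acot11 by 0.12 on average (root mean square). Timm22, of the mitochondrial inner membrane import machinery, followed at 0.15. The third was Esrra, the nuclear receptor ERR alpha, at 0.17, with 40.0, 38.0 and 53.1 CPM in Celf1 AKO against 94.9, 80.0 and 93.0 CPM in Flox control. None of these 3 passed by edgeR (adjusted p = 0.215 to 0.227).

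Them4 (ENSMUSG00000028145, chromosome 3, 94310089 to 94332540, plus strand) codes for a mitochondrial thioesterase also described as a binding partner of the kinase AKT. It was at 7.53, 7.11 and 9.24 CPM in Celf1 AKO and at 14.4, 10.4 and 12.9 CPM in Flox control. All knockout values were lower than all controls, with the gap narrowest between Celf1 AKO replicate 3 and Flox control replicate 2. The log2 fold change was -0.66 (SE 0.19, edgeR adjusted p = 0.287), and the adjusted p was 0.0568 by DESeq2 and 0.0693 by edgeR without Celf1 AKO replicate 3. Its 3 nearest genes in pattern were Acadvl, the very-long-chain acyl-CoA dehydrogenase, Etfdh, which passes electrons from such dehydrogenases to ubiquinone, and Cycs, cytochrome c, each within 0.062 log2 units (root mean square).

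Acot8 (ENSMUSG00000017307, chromosome 2, 164792765 to 164804882, minus strand) codes for a peroxisomal thioesterase of broad substrate range. It was at 7.53, 7.40 and 7.87 CPM in Celf1 AKO and at 9.06, 9.33 and 10.1 CPM in Flox control. The groups did not overlap, but the difference was small, with a log2 fold change of -0.32 (SE 0.15, edgeR adjusted p = 0.424). Of its exon bases 12.3% overlap Snx21 on the other strand, which was at 30.1, 23.2 and 21.8 CPM against 25.2, 23.1 and 24.3 CPM. The nearest patterns were those of Mtif2, Mrpl22 and Slmap, the first a mitochondrial translation factor and the second a mitochondrial ribosomal protein.

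Acot4 (ENSMUSG00000052392, chromosome 12, 84038379 to 84048601, plus strand), a peroxisomal enzyme in mouse, was at 6.26, 7.56 and 21.7 CPM in Celf1 AKO and at 20.1, 14.7 and 25.9 CPM in Flox control. Celf1 AKO replicates 1 and 2 lay below all 3 controls, and replicate 3 lay among the controls. The log2 fold change was -0.77 (SE 0.47, edgeR adjusted p = 0.522). Without Celf1 AKO replicate 3 it was -1.55 (SE 0.26, edgeR adjusted p = 0.0353), and without replicate 1 of that group -0.43 (edgeR adjusted p = 0.823). Without Celf1 AKO replicate 3, 2 of the 9 members passed, Acot4 and Acot11, both lower. In that comparison of 2 against 3 libraries, 3.19% of all genes passed in either direction and 1.76% were lower.

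Acot1 (ENSMUSG00000072949, chromosome 12, 84009490 to 84018371, plus strand), the cytosolic copy, was at 1.66, 1.65 and 3.61 CPM in Celf1 AKO and at 4.68, 2.52 and 5.20 CPM in Flox control. Between 91 and 340 reads stood behind each value. Its log2 fold change was -0.84 (SE 0.41, edgeR adjusted p = 0.435), and -1.32 without Celf1 AKO replicate 3 (edgeR adjusted p = 0.0847).

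Acot2 (ENSMUSG00000021226, chromosome 12, 83987861 to 83993873, plus strand), the mitochondrial matrix copy, was at 20.7, 26.3 and 30.4 CPM in Celf1 AKO and at 27.0, 24.6 and 22.3 CPM in Flox control. The groups overlapped fully, with a log2 fold change of 0.07 (SE 0.16, edgeR adjusted p = 0.893) that turned to -0.07 without Celf1 AKO replicate 3. With the counts of Acot1 and Acot2 summed into 1 row, the log2 fold change was -0.03 (edgeR adjusted p = 0.951). Acot2 supplied most of the summed reads. Of the summed FPKM of both copies, Acot2 gave 89.9%, 91.9% and 85.7% in Celf1 AKO and 80.4%, 87.4% and 75.2% in Flox control. The share was highest in Celf1 AKO replicates 1 and 2, and replicate 3 lay within the range of the controls.

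The pattern of Acot1 and Acot4 recurred in the other copies of the cluster. In 5 of its 6 genes, all but Acot2, Celf1 AKO replicates 1 and 2 were the 2 lowest of the 6 libraries and Flox control replicate 2 the lowest control. This order is not particular to the cluster. Them4, on chromosome 3, had it too, and Acot8 and Acot11 also had Celf1 AKO replicates 1 and 2 lowest. In Them4, Acot8 and Acot11, however, Celf1 AKO replicate 3 also lay below every control. Celf1 AKO replicates 1 and 2 lay below the other 4 libraries in 18.8% of all genes tested, a background counted after the pattern was seen. Acot5 had the widest spread, at 7.83, 6.17 and 67.7 CPM in Celf1 AKO against 57.0, 34.9 and 84.9 CPM in Flox control. Acot6 was at 10.3, 10.3 and 21.5 CPM in Celf1 AKO against 19.9, 16.1 and 20.2 CPM in Flox control. Acot3, at 0.146, 0.164 and 1.77 CPM against 0.858, 0.339 and 2.13 CPM, was the lowest copy. By edgeR on 6 libraries none of these 3 passed (adjusted p = 0.586 to 0.817). Without Celf1 AKO replicate 3, Acot5 (log2 fold change -3.08, edgeR adjusted p = 0.0275) and Acot6 (-0.87, 0.0373) did. In that fit 3.19% of all genes passed in either direction and 1.76% were lower. The library left out is the one that departs from the pattern, so these calls are no separate support for it. Of the other relatives, Them6 was at 2.42 ± 0.578 CPM in Celf1 AKO against 1.97 ± 0.566 CPM in Flox control, Acot10 was too low to test, and Acot12, Them5 and Baat were not analysed here. Copies share sequence, so these genes are not independent of each other.

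Besides the copies, 6 further genes of the table lay within the cluster or within 100 kb of it, and 3 of them had the same 2 libraries lowest. One was the overlapping antisense gene 4732463B04Rik, at 1.27, 0.819 and 3.80 CPM in Celf1 AKO against 2.95, 2.61 and 4.18 CPM in Flox control, whose exons overlap 9.21% of the exon bases of Acot4, where reads cannot be assigned without strand. The others were Riox1 (3.48, 3.54 and 6.28 CPM against 5.97, 5.22 and 5.72 CPM) and Numb (30.4, 28.9 and 43.2 CPM against 34.6, 32.5 and 33.8 CPM), named after their values were seen.

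**Figure D2:**
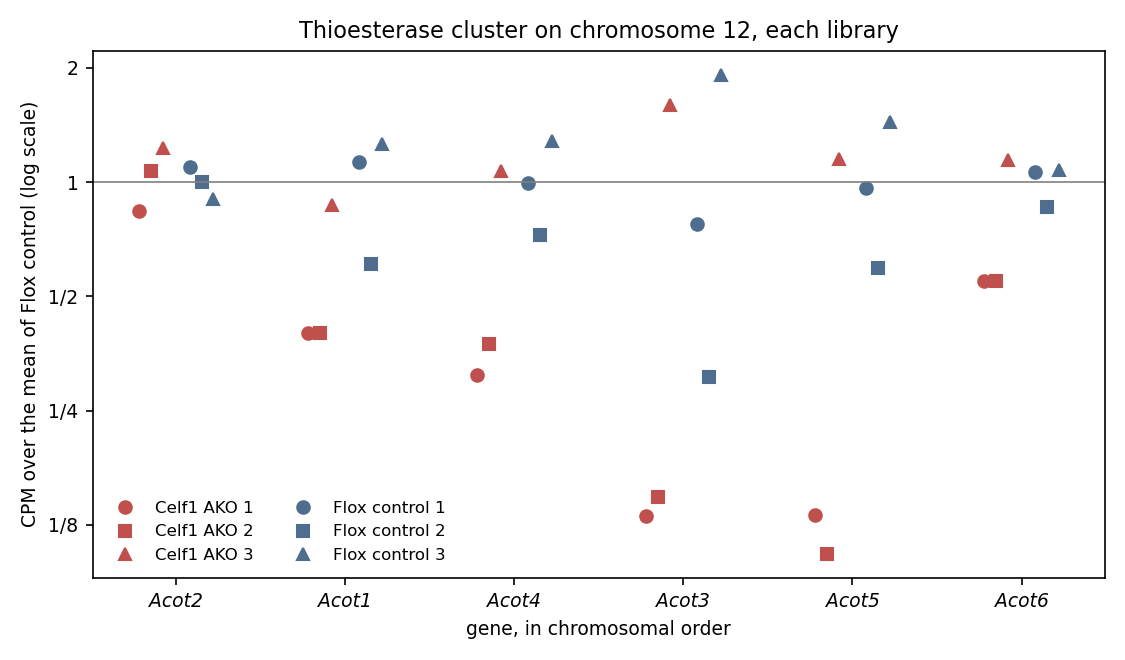
CPM of the 6 cluster genes in each library, divided by the mean of Flox control (log axis), in chromosomal order. Celf1 AKO is red and left of Flox control in blue, and marker shapes give the replicate. For 5 of the 6 genes, all but Acot2, the red circle and square (Celf1 AKO replicates 1 and 2) lie below all other libraries.

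The gene nearest to Acot4 in pattern was Gpam, the first enzyme of triglyceride synthesis, at 54.4, 60.6 and 189 CPM in Celf1 AKO against 139, 125 and 255 CPM in Flox control (root mean square difference 0.16 on the log2 scale). This search was added after the values of Acot4 were seen. Ppara, which encodes PPAR alpha and was also named after its values were seen, was at 8.14, 6.58 and 20.5 CPM in Celf1 AKO against 28.7, 19.2 and 37.4 CPM in Flox control (edgeR adjusted p = 0.322, and 0.0316 without Celf1 AKO replicate 3). It too was lowest in Celf1 AKO replicates 1 and 2.

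Acot9 (ENSMUSG00000025287, chromosome X, 155262443 to 155297654, plus strand) was at 86.8, 82.4 and 73.9 CPM in Celf1 AKO and at 92.4, 72.0 and 69.2 CPM in Flox control. The values interleaved, with a log2 fold change of 0.06 (SE 0.14, edgeR adjusted p = 0.891). Its transcript shared 20.2% of its 50-base words and 0.968% of its 100-base words with other genes, those of 100 bases with Acot10, a copy that had 6 to 20 reads per library. Summing Acot9 and Acot10 left the log2 fold change at 0.06.

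Acot13 (ENSMUSG00000006717, chromosome 13, 24817948 to 24831540, minus strand), a small thioesterase associated with mitochondria and a partner of phosphatidylcholine transfer protein, was at 18.9, 18.2 and 13.2 CPM in Celf1 AKO and at 20.5, 17.0 and 16.3 CPM in Flox control. Its log2 fold change was -0.10 (SE 0.18, edgeR adjusted p = 0.851) and changed sign without Celf1 AKO replicate 3. Acot7 (ENSMUSG00000028937, chromosome 4, 152178134 to 152271855, plus strand) was at 18.4, 26.5 and 24.5 CPM in Celf1 AKO and at 20.2, 20.8 and 18.7 CPM in Flox control. It had the highest fold change of the 9, 0.22 on the log2 scale (SE 0.16, edgeR adjusted p = 0.595), with Celf1 AKO replicate 1 below every control. Of 5 neuronal markers, the 3 in the table (Tubb3, Rbfox3 and Snap25) summed to 1.31 to 1.97 CPM in Celf1 AKO against 0.949 to 1.56 CPM in Flox control.

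**Figure D3:**
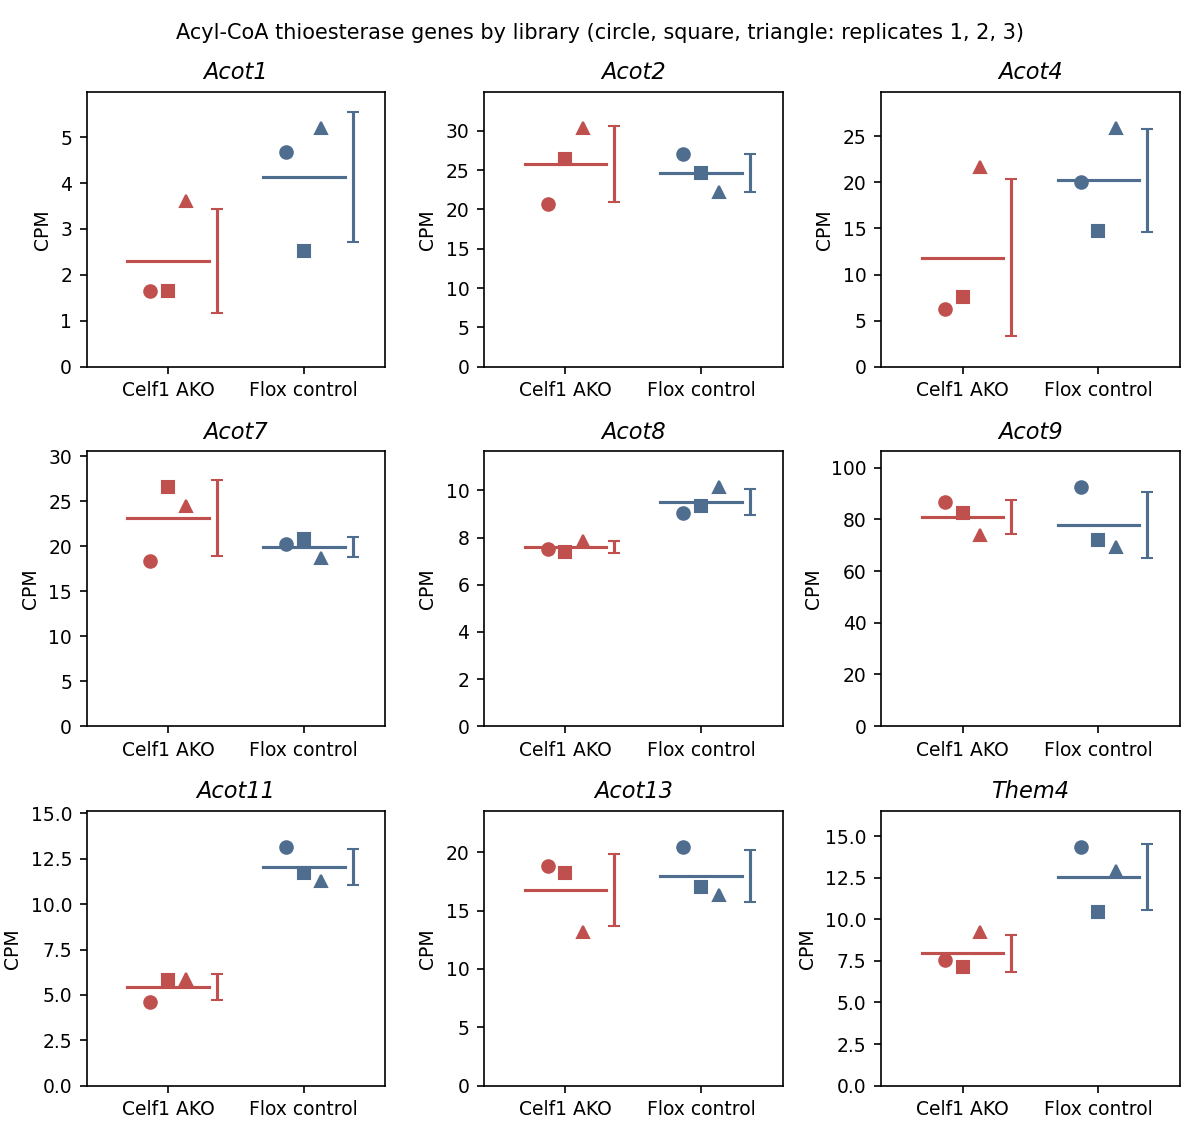
CPM of each thioesterase gene in the 6 libraries, Celf1 AKO (red) left of Flox control (blue). Circles, squares and triangles are replicates 1, 2 and 3, horizontal lines are means and bars beside them SD (n = 3). The groups are apart for Acot8, Acot11 and Them4, and the red triangle of Acot4 (21.7 CPM) lies among the controls.

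**Figure D4:**
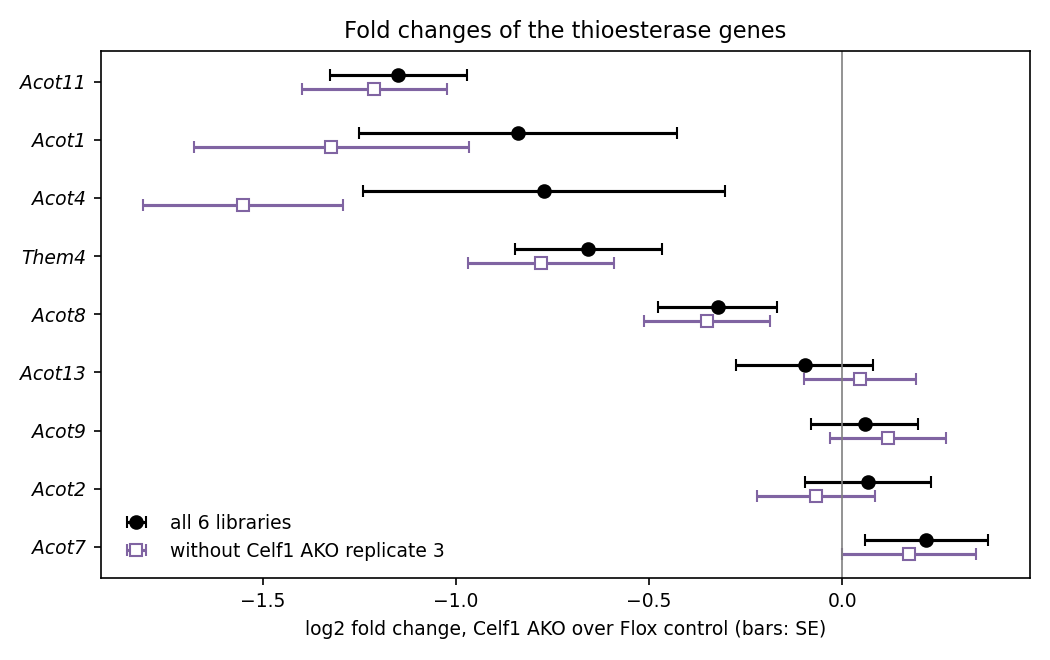
Log2 fold changes of Celf1 AKO over Flox control with SE for the 9 genes, from all 6 libraries (filled) and without Celf1 AKO replicate 3 (open). Acot4 is at -0.77 with all 6 and -1.55 without that library, Acot1 at -0.84 and -1.32, and Acot11 at -1.15 and -1.21.

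Summed markers of some other cell types were also apart between the groups, though no marker passed by edgeR on 6 libraries. DESeq2 called 5 of 6 Schwann cell markers, 2 of 5 endothelial and 1 of 4 epithelial markers (Prlr) higher in Celf1 AKO. Over all genes DESeq2 called 3.04% in either direction and 0.926% lower. The 6 Schwann cell and nerve markers summed to 431 to 597 CPM in Celf1 AKO against 241 to 310 CPM in Flox control, with all 6 apart between the groups. Pmp22 gave the largest part of this sum (means 284 and 178 CPM). The 5 endothelial markers summed to 831 to 938 CPM against 478 to 681 CPM, with 3 of the 5 apart. Pecam1 overlapped, and Tek overlapped with a negative log2 fold change (-0.20). Over all genes tested, 17.3% were apart between the groups in either direction and 9.51% were lower without overlap. The 5 neutrophil markers summed to 15.6 to 108 CPM against 3.20 to 15.4 CPM, highest in Celf1 AKO replicate 3. Acta1, the only one of 6 muscle markers analysed here, was at 23.1, 70.6 and 1039 CPM against 45.1, 75.2 and 33.5 CPM. The 5 macrophage markers summed to 236 to 722 CPM against 414 to 583 CPM, the 5 fibroblast markers to 2086 to 3325 CPM against 2421 to 3048 CPM, the 6 mast cell markers to 30.6 to 79.5 CPM against 56.5 to 115 CPM, and 4 epithelial markers to 8.61 to 21.2 CPM against 5.14 to 8.04 CPM. Of all the markers measured, Ngp and Epcam had libraries at 0, all of them controls. The part of these cell types in the thioesterase values was not tested.

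Enzymes that make, carry or bind acyl-CoA were set beside the thioesterases. By edgeR on 6 libraries none of them passed in either direction. DESeq2 called 1 synthetase (Slc27a2) and 2 carnitine shuttle genes (Cpt2, adjusted p = 0.0157, and Slc25a20, adjusted p = 0.0281), all lower. Over all genes DESeq2 called 3.04% in either direction and 0.926% lower. Among 15 tested acyl-CoA synthetases, which run the opposite reaction, 10 had negative log2 fold changes (median -0.09). Acsl1, the main long-chain synthetase of fat, was at 6785 ± 1338 CPM in Celf1 AKO against 8943 ± 537 CPM in Flox control (edgeR adjusted p = 0.393). Slc27a2, a transporter with synthetase activity, was at 0.790 ± 0.762 against 7.34 ± 1.79 CPM (edgeR adjusted p = 0.227, DESeq2 adjusted p = 0.000117), and Slc27a4 at 35.3 ± 4.82 against 43.7 ± 3.53 CPM (SD, n = 3 each). Of 16 genes of the carnitine shuttle and acyl-CoA binding, 11 were negative (median -0.09). Slc25a20, which carries acylcarnitine into mitochondria, was at 162 ± 58.5 against 308 ± 36.4 CPM (edgeR adjusted p = 0.262, and 0.0243 without Celf1 AKO replicate 3). Cpt2, which rebuilds acyl-CoA inside, was at 164 ± 17.8 against 238 ± 9.25 CPM, and Cpt1b, the muscle and brown fat form of the entry enzyme, at 0.519 ± 0.327 against 1.69 ± 0.0989 CPM. Both nudix hydrolases tested, Nudt7 and Nudt19, which split coenzyme A itself, were negative (-0.22 and -0.27).

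Of 17 PPAR alpha target genes, 11 had negative log2 fold changes (median -0.37). Those of smallest p were Acadm (623 ± 32.0 against 998 ± 112 CPM), Plin5 (37.8 ± 15.8 against 83.0 ± 2.88 CPM), a lipid droplet protein, and Ehhadh (45.3 ± 10.6 against 87.9 ± 25.8 CPM), a peroxisomal enzyme of fatty acid oxidation. DESeq2 called these 3 lower and Fgf21, a secreted hormone, higher (adjusted p = 0.0441), and edgeR on 6 libraries called none of the 17. Of all genes, DESeq2 called 3.04% in either direction and 0.926% lower. Fgf21 was at 2.60, 7.68 and 0.645 CPM in Celf1 AKO against 1.17, 0.354 and 0.275 CPM in Flox control, with overlap (log2 fold change 2.61, edgeR adjusted p = 0.326). Pdk4 (log2 fold change 0.64) and Angptl4 (0.43) were also positive. Fgf21, Pdk4 and Angptl4 were named after their values were seen. Without Celf1 AKO replicate 3, 2 of the 17 passed by edgeR, Plin5 and Ppara, both lower. In that fit 3.19% of all genes passed in either direction and 1.76% were lower. Among 8 thermogenic genes 7 were negative (median -1.22), and Ucp1, Dio2, which activates thyroid hormone, and Elovl3, a fatty acid elongase, had the smallest p. The positive gene was Ppargc1a, named after its values were seen. It was at 186, 80.4 and 74.7 CPM in Celf1 AKO against 79.3, 52.4 and 57.4 CPM in Flox control, with overlap (log2 fold change 0.85, edgeR adjusted p = 0.38). Dio2 was at 19.2 ± 14.0 CPM in Celf1 AKO against 123 ± 46.6 CPM in Flox control, and Elovl3 at 3.10 ± 3.12 against 16.0 ± 4.91 CPM. With all 6 libraries 0 of the 8 passed by edgeR, and DESeq2 called 3 lower, Ucp1, Dio2 and Cox7a1, but not Elovl3 (adjusted p = 0.103). Without Celf1 AKO replicate 3, edgeR called 1, Elovl3. The thioesterase median of -0.32 lay between those of the synthetases and the thermogenic genes, and no difference between lists was tested.

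**Figure D5:**
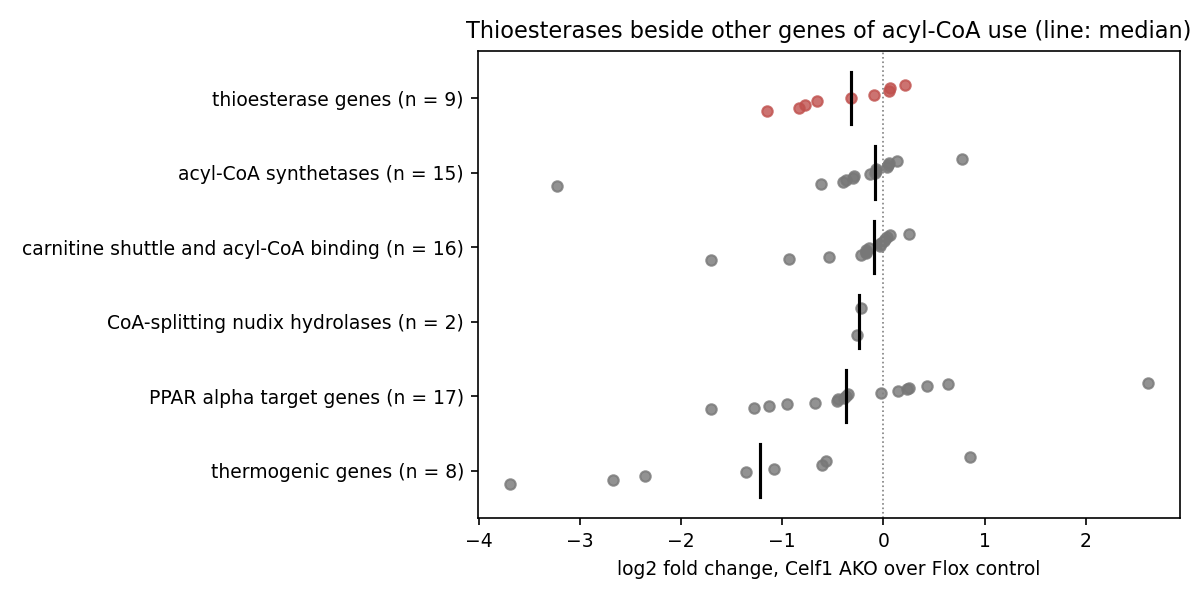
Log2 fold changes of Celf1 AKO over Flox control for the 9 thioesterase genes (red) and for the tested genes of 5 lists (grey), 1 point per gene, with the median as a line. The medians are -0.32 for the thioesterases, -0.09 for synthetases and for the carnitine shuttle, -0.24 for nudix hydrolases, -0.37 for PPAR alpha targets and -1.22 for thermogenic genes.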

How the data were processed

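Per the labels' protocols, Trizol RNA was made into circularized mRNA libraries. HISAT2, RSEM 1.3.1, GRCm38 and mm10 appear in the submitters' processing notes without their roles, and the annotation, read length and strand setting are unknown. The authors deposited raw read counts per Ensembl gene, 1 column per library, and FPKM of the same genes. In 11430 genes with at least 100 reads in every library, each deposited FPKM was the count over 1 length per gene and 1 factor per library, within 0.0273%.

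Symbols came from GENCODE M21 on GRCm38 (16528 of 16627 identifiers matched). The counts were tested with edgeR 4.0.16 (R 4.3.3): TMM, default filter (16366 genes kept, 261 removed), robust quasi-likelihood, and a model with genotype alone. A gene was called at a Benjamini-Hochberg adjusted p under 0.05 over all genes tested. SE is the log2 fold change over the root of F. The fit was also run on simulated counts, with no library set apart from its group, and the outcome is not given here. A level of 1 CPM stands for 54.9 to 67.8 counts. With 3 libraries a group, p-values measure the spread between libraries, which may be technical. No pair of libraries agreed within sampling noise (smallest chi-square over degrees of freedom 48.4).

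Alternatives were other normalizations and filters, DESeq2 1.42.0, limma 3.58.1 (voom, and log2(FPKM + 1) or log2(FPKM + 0.1)), a replicate block and leaving out each library. Coding sequences were aligned with MAFFT 7.526. Members and lists were chosen with earlier results of these data known. Named genes were the 9 members, Celf1, Ucp1, the 3 of smallest p in each list, and the 3 of nearest pattern for members whose groups did not overlap.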

Additional observations from a re-analysis of the deposited data

How the results depend on the processing

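Of 153 refits of the 9 thioesterase log2 fold changes, 145 kept their sign and their side of the threshold, 3 newly passed and 5 changed sign. DESeq2 called Acot11 (-1.13, adjusted p = 1.12e-06), 1 member in all. Without Celf1 AKO replicate 3, edgeR called 2 members, Acot4 (-1.55) and Acot11 (-1.21), and Acot2 (-0.0682) and Acot13 (0.0461) changed sign. Sign also changed without Flox control replicate 3 for Acot2 (-0.00374) and Acot9 (-0.0237), and without Flox control replicate 1 for Acot13 (0.00587), all near 0. The cause was not tested.

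With a library left out, log2 fold changes ran from -1.32 to -0.61 for Acot1, -0.07 to 0.24 for Acot2, -1.55 to -0.43 for Acot4, 0.11 to 0.39 for Acot7, -0.36 to -0.28 for Acot8, -0.02 to 0.20 for Acot9, -1.21 to -1.01 for Acot11, -0.17 to 0.05 for Acot13 and -0.78 to -0.55 for Them4, and members called from 0 to 2. On summed rows, refits chosen after seeing the data ran from -0.19 to 0.14 for Acot1 with Acot2 (0.144 with Celf1 AKO replicate 1 left out, 0.0404 with Flox control replicate 1 left out) and from -0.02 to 0.20 for Acot9 with Acot10 (-0.0231 without Flox control replicate 3).

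Over the whole table, 2 genes were called, against 496 by DESeq2, 0 with library size only, limma-voom, log2(FPKM + 1) or log2(FPKM + 0.1), 1 with log2(FPKM + 1) and no filter, and 0 to 527 with a library left out (527 without Celf1 AKO replicate 3). The replicate block called 12 genes and 0 members. Pairing by replicate number was not evident, though these few values cannot settle it. Deviations of same-numbered libraries correlated at 0.071, -0.0084 and 0.27, and those of differently numbered libraries at -0.35 to 0.30. Acot1, with 91 to 340 reads per library, rests on the fewest counts.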
